A study of Homo sapiens with 6 samples.

Results

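The genes described here encode H2AX and the histone variants made outside S phase: H2AX, H2AZ1, H2AZ2, H2AJ, H3-3A, H3-3B, MACROH2A1, MACROH2A2 and H1-10. These 9 genes were chosen by symbol and not by a threshold on a measured value, and all 9 were among the 21447 genes with transcripts in the files and among the 14322 that passed the filter on low counts. They were measured by bulk RNA sequencing of unsynchronized U-2 OS cells, a human osteosarcoma line that keeps its telomeres by recombination and is known to lack functional ATRX. Of the 6 libraries, 3 were of untreated cells and 3 of cells given 4 Gy of ionizing radiation (IR) and lysed 24 h later. All 6 libraries come from the same line and growth medium, and the study's statistics notes call the triplicates independent, without naming what was repeated. If they were not separate cultures, p-values measure only the spread between these samples, which may be technical.

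Nucleosomes are built mostly during S phase from histones whose genes lie in clusters, lack introns and give mRNAs that end in a stem-loop instead of a poly(A) tail. Replication-independent variants come from dispersed genes, are expressed through the cell cycle as polyadenylated mRNAs and are placed by dedicated chaperones. H2AX is the variant whose tail is phosphorylated by ATM, ATR and DNA-PK around DNA breaks. H2A.Z marks promoters and enhancers, H3.3 replaces H3 at active genes and at telomeres, the macroH2A proteins carry a large globular domain that is linked to silent chromatin, and H1-10 is a linker histone.

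H2AX (chr11:119093874-119095465 of GRCh38, minus strand, a single exon in its canonical transcript) was the only member with the stem-loop of replication-dependent histone mRNAs, which was found in 1 of the 9 canonical member transcripts and in 63 of 66 canonical transcripts of clustered histone genes. The stem-loop starts 49 bases after the stop codon and 1024 bases of the transcript H2AX-202 follow it, and the gene is known to give both a short mRNA that ends at the loop and a longer polyadenylated one. Both annotated H2AX transcripts are of the long kind, and the files have no separate entry for a short form. The loop is shown because it sets H2AX apart from the other members, with the stem and loop in capitals (chr11:119094898-119094913, shown on the strand of the mRNA).
H2AX stem-loop: acaaaGGCCCTTTTAAGGGCCaccaccgcc

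The promoters of H2AX and of H2AZ1 are shown with those of H2AZ2 and H1-10, the members with the lowest p without and with the correction for GC content described further on. Each sequence holds the 250 bases before the start site on the strand of the gene, from RefSeq (GRCh38.p14), with matches to the CCAAT box (CCAAT), the GC box (GGGCGG), the CHR element (TTTGAA) and the TATA box (TATAAA) on either strand in capitals.
H2AX, chr11:119095466-119095715, minus strand: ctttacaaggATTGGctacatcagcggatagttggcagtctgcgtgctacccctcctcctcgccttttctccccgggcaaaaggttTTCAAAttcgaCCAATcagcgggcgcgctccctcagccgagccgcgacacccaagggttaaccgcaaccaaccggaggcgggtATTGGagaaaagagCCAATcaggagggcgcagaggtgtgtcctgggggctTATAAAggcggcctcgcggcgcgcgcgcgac
H2AZ1, chr4:99950276-99950525, minus strand: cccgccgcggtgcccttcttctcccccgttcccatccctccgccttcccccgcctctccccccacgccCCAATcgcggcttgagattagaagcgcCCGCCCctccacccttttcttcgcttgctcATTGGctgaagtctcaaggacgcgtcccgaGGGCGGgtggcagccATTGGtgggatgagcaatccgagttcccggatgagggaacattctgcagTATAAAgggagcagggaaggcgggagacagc
H2AZ2, chr7:44848088-44848337, minus strand: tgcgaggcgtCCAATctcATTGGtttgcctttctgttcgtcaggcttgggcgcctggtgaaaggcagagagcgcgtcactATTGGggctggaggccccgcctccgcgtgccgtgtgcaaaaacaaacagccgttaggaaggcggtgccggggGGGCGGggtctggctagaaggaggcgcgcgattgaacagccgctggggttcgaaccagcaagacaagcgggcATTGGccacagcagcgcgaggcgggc
H1-10, chr3:129316287-129316536, minus strand: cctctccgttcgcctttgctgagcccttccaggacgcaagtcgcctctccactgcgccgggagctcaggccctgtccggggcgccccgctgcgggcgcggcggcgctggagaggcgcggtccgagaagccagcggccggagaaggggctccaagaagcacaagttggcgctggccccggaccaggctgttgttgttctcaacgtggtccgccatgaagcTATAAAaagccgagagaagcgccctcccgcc

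H2AX and H2AZ2 each held 4 CCAAT boxes and H2AZ1 held 3. H2AX, H2AZ1 and H1-10 had a TATA box that began 31 bases before the start site, and H2AZ2 had none in this window. Of the 9 members, 7 had a CCAAT box in a window of 300 bases (250 before and 50 after a start site), against 34.6% of all 35116 such windows. TATA boxes were found for 4 members (11.5% of all windows), GC boxes for 5 (45.0%) and the CHR element for H2AX and H2AZ1 (15.2%). No member window held an E2F site (TTTCCCGC, TTTGGCGC or TTTCGCGC), which 2.74% of all windows held. Members with several start sites had several windows (13 in all), which gives them more chances of a match, and a match is a description of the letters only.

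The estimated counts of the libraries totalled 18573309 to 22953834, except for IR replicate 3 with 45308792, whose values therefore have the smallest counting error. The chi-square per gene was 29.1 and 32.2 in the pairs that hold that library, against 3.44 to 9.15 in the other pairs of replicates. This value is taken on unscaled counts and rises with depth for the same relative difference. How much of the gap comes from the depth of IR replicate 3 was not tested. A suffix in the name of its deposited file may stand for a repeat, and the sources used here do not say what was repeated. CDKN1A, the p53 target that encodes p21, had 120 to 124 CPM (counts per 1000000 counts of the library, scaled by the TMM method) in the untreated and 322 to 390 CPM in the IR libraries. Markers of the mesenchymal and bone lineage summed to 5895 to 7023 CPM over the 6 libraries, with COL1A2 at most at 2.14 and ALPL at 4.86 CPM, whereas the blood and endothelial markers summed to at most 1.75 and 0.689 CPM, EPCAM reached 10.5 CPM, CDH1 3.41 CPM and TERT 0.0984 CPM. The IR libraries had higher values of GC-rich genes and lower values of GC-poor genes than the untreated ones, a trend that differed in strength between libraries and was strongest in IR replicate 3. Every member is therefore given both as measured and with this trend removed library by library (GC trend removed).

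By level per length, in TPM (a share of the library scaled to transcript length) of the untreated libraries, the members ran from H2AZ1 (1288 ± 116, SD, n = 3) through H3-3A (1037 ± 124), H3-3B (764 ± 4.01), H2AZ2 (475 ± 30.7), MACROH2A1 (131 ± 1.84), MACROH2A2 (65.1 ± 17.3), H2AX (62.1 ± 5.71) and H1-10 (44.7 ± 2.91) to H2AJ (24.1 ± 3.42). H2A.Z and H3.3 genes thus stood above macroH2A, H2AX and H1-10 in TPM. The untreated TPM ranges of neighbours overlapped only between MACROH2A2 and H2AX. After IR the means followed the order H2AZ1 (1322 ± 328), H3-3A (827 ± 60.2), H3-3B (732 ± 108), H2AZ2 (431 ± 79.0), MACROH2A1 (115 ± 8.34), H2AX (74.5 ± 18.1), MACROH2A2 (66.3 ± 15.2), H1-10 (49.3 ± 21.5) and H2AJ (26.6 ± 5.43). Ranges of the IR libraries then overlapped between H3-3A and H3-3B, between H2AX and MACROH2A2 and between MACROH2A2 and H1-10.

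H2AX, the variant phosphorylated at DNA breaks, had 89.4, 102 and 107 CPM in the untreated libraries and 115, 101 and 129 CPM in the IR libraries. The groups overlapped, with IR replicate 2 below 2 of the 3 untreated libraries. The log2 fold change of IR against untreated was 0.21 (SE 0.10, adjusted p = 0.136) with edgeR's quasi-likelihood test, which did not pass the threshold of 0.05 on the adjusted p-value, and its 95% confidence interval ran from -0.01 to 0.43. At 66.9% GC, H2AX was the second most GC-rich member after H1-10. The fitted GC trend at its GC content was -0.27, -0.18 and -0.22 on the log2 scale in the untreated and 0.16, 0.09 and 0.45 in the IR libraries. With that trend removed H2AX had 108, 116 and 125 CPM untreated and 103, 95.1 and 94.1 CPM after IR, so that every IR library lay below every untreated one, and the log2 fold change was -0.26 (SE 0.07, adjusted p = 0.0221). The sign of the H2AX difference thus depended on the correction. With the trend removed, the call was lost when untreated replicate 2 (adjusted p = 0.0715), untreated replicate 3 (0.0724) or IR replicate 2 (0.0717) was left out, by edgeR.

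Genes of similar GC content put the uncorrected value beside its background. Among the 336 other genes within 2 percentage points of GC content of H2AX, the median log2 fold change was 0.45, 91.7% had a positive value and 80.7% had a larger one than H2AX. Whether GC content or a property that goes with it moved these values was not tested. Of the transcripts of H2AX, the unspliced H2AX-202 had 75.8, 93.6 and 96.8 CPM in the untreated libraries and 107, 90.3 and 128 CPM in the IR libraries. The spliced H2AX-201, in which an intron is removed after the stop codon, had 14.2, 8.76 and 10.5 CPM in the untreated libraries and 9.49, 11.7 and 7.1 CPM in the IR libraries. Neither transcript separated the groups.

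**Figure D1:**
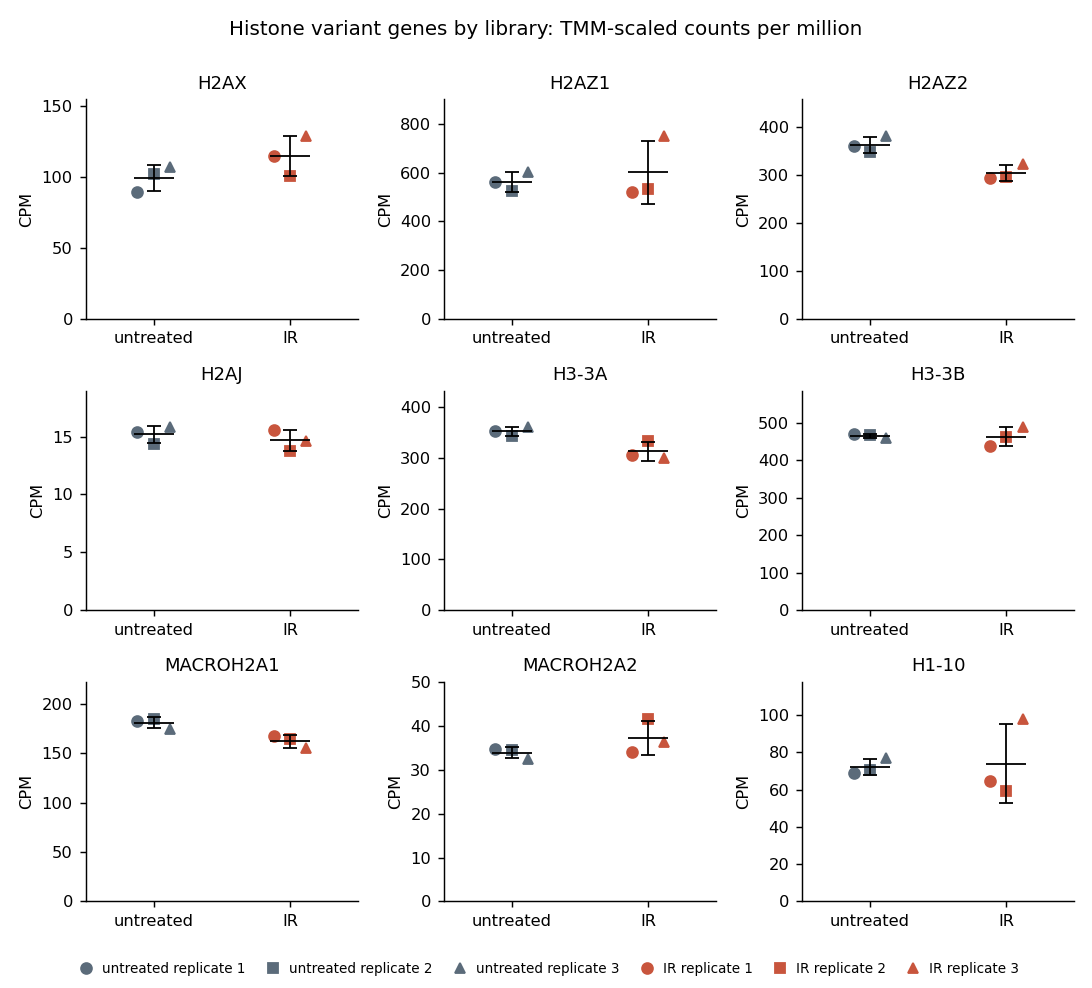
TMM-scaled CPM (vertical axes, from 0) of the 9 histone variant genes in the 3 untreated and 3 IR libraries, without correction for GC content, with the mean and SD as black lines. The groups did not overlap for H2AZ2, H3-3A and MACROH2A1, each lower after IR, and IR replicate 3 stood above the other 5 libraries for H2AX, H2AZ1, H3-3B and H1-10.

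H2AZ1 (chr4:99948086-99950355, 5 exons) and H2AZ2 (chr7:44826791-44848087, 5 exons) encode the closely similar forms of H2A.Z. H2AZ1 had 563, 523 and 605 CPM in the untreated libraries and 519, 533 and 751 CPM in the IR libraries. Only IR replicate 3 lay above the untreated range, and the log2 fold change was 0.09 (SE 0.13, adjusted p = 0.611) as measured and 0.17 (SE 0.14, adjusted p = 0.391) with the GC trend removed. Without IR replicate 3 it was -0.10 and -0.05, so that the direction rested on that library.

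H2AZ2 fell after IR in CPM. It had 360, 348 and 381 CPM in the untreated libraries and 294, 296 and 323 CPM in the IR libraries, a fall by 16.1%, and no IR library reached the lowest untreated one. The log2 fold change was -0.25 (SE 0.07, adjusted p = 0.0183) as measured (95% confidence interval -0.40 to -0.10) and -0.22 (SE 0.06, adjusted p = 0.0285) with the GC trend removed. H2AZ2 was the only member called by edgeR in both fits. The uncorrected call was lost without untreated replicate 1 (adjusted p = 0.0646), untreated replicate 3 (0.0653) or IR replicate 2 (0.0609), and with an offset for effective length (log2 fold change -0.10, adjusted p = 0.569). With the trend removed, it held in 1 of the 6 fits that left out a library, that without IR replicate 3 (adjusted p = 0.00481), and the adjusted p was highest without IR replicate 2 (0.0949). In TPM H2AZ2 had 468, 449 and 509 untreated and 401, 371 and 521 after IR, with overlapping groups and IR replicate 3 the highest library. In bulk RNA, fewer cells that express a gene and less of its RNA per cell cannot be told apart.

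Several H2AZ2 transcripts end in either of a pair of last coding exons that give H2A.Z proteins with a long or a short C-terminal tail. Both are shown, with the stop codon, because they separate the long-tail from the short-tail protein (GRCh38, minus strand, from GENCODE release 44).
H2AZ2-202, chr7:44834501-44834562, long tail, 62 bases: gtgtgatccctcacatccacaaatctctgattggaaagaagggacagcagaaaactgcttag
H2AZ2-201, chr7:44830144-44830163, short tail, 20 bases: agaagagaaggtgttcttag

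Transcripts with the long tail summed to 212, 210 and 236 CPM untreated and 172, 184 and 208 CPM after IR, and those with the short tail to 121, 116 and 123 CPM and 98.3, 92.7 and 101 CPM. In CPM the untreated and IR values of both sums did not overlap. In TPM the long-tail sum was 329, 320 and 386 untreated and 284, 285 and 401 after IR, with overlapping groups. The short-tail sum was lower in every IR library in TPM too. H2AZ2-202, named after its values were seen, had 97.3, 100 and 95.3 CPM in the untreated libraries and 67, 68.7 and 66.3 CPM in the IR libraries. H2AZ2-204, another transcript of the long-tail sum, did not share this fall. It had 80.9, 84.1 and 103 CPM untreated and 73.3, 81.6 and 126 CPM after IR, with overlapping groups. The short tail took 12.7% ± 0.599 (SD, n = 3) of the TPM of both forms in the untreated and 10.2% ± 1.36 in the IR libraries, which gave p = 0.1 by the two-sided exact permutation test, the smallest value that 3 libraries against 3 allow. These shares rest on kallisto's split of reads between transcripts with shared exons. H2AZ2-205, H2AZ2-207 and H2AZ2-208, also annotated as protein-coding, are in neither sum. Their mean CPM untreated and after IR was 12.7 and 21.9 for H2AZ2-205, with overlapping groups. For H2AZ2-207 it was 3.29 and 2, and for H2AZ2-208 8.32 and 2.6.

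H2AJ (chr12:14774405-14778002), a variant that is known from senescent and differentiated cells, was the least abundant member. It had 15.4, 14.4 and 15.8 CPM in the untreated libraries and 15.6, 13.8 and 14.6 CPM in the IR libraries, with overlapping groups and a log2 fold change of -0.05 (SE 0.09, adjusted p = 0.721). With the GC trend removed, the values were 17, 15.5 and 17.9 CPM untreated and 15, 12.9 and 12 CPM after IR and the log2 fold change was -0.34 (SE 0.11, adjusted p = 0.0388). That call was lost in 5 of the 6 fits that left out a library (each except the fit without IR replicate 1), in which the adjusted p reached 0.11. Uncorrected, the sign turned with an offset for effective length (0.19) and with protein-coding transcripts only (0.11). The 1435 other genes within 2 percentage points of its GC content of 61.7% had a median log2 fold change of 0.28.

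H3-3A (chr1:226061851-226072019) and H3-3B (chr17:75776434-75785893) encode the same H3.3 protein from different mRNAs. H3-3A, the most GC-poor member at 40.5%, had 352, 344 and 360 CPM in the untreated libraries and 305, 334 and 299 CPM in the IR libraries. The IR libraries lay below the untreated ones, but the difference did not pass the test, with a log2 fold change of -0.17 (SE 0.07, adjusted p = 0.073). With the GC trend removed it was -0.01 (SE 0.06, adjusted p = 0.892), with groups that overlapped. The DESeq2 Wald test on the uncorrected counts called it lower (adjusted p = 0.0429). With protein-coding transcripts only, the uncorrected log2 fold change of H3-3A was -0.0 (adjusted p = 0.992 by edgeR). Those transcripts summed to 191, 182 and 165 CPM untreated and 167, 173 and 216 CPM after IR, with overlapping groups.

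H3-3B had 470, 468 and 459 CPM in the untreated libraries and 438, 463 and 488 CPM in the IR libraries. Its log2 fold change was -0.01 (SE 0.06, adjusted p = 0.941) as measured and 0.04 (SE 0.06, adjusted p = 0.697) with the trend removed, and the 95% confidence intervals of -0.15 to 0.13 and -0.10 to 0.17 leave room for differences of that size in either direction. H3-3B shares 179 exonic bases with UNK on the opposite strand, and the sources used here do not say that the counting used strand.

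Transcripts of H3-3B in which an exon runs across an intron of the canonical transcript were rare in untreated cells, and their sum was higher in every IR library, although 1 of the 4 had a lower mean. Over the 4 transcripts the sum was 1.66, 1.03 and 1.07 CPM untreated and 4.30, 3.13 and 7.73 CPM after IR, and the groups did not overlap. For H3-3B-205 the untreated libraries had 0 CPM and the IR libraries 0.782, 0.935 and 2.49 CPM. For H3-3B-203 and H3-3B-207, both annotated as retained introns, values ran from 0.0894 to 0.179 CPM untreated and from 0.66 to 2.79 CPM after IR. H3-3B-209, a retained intron that made up most of the untreated sum, did not share this direction, with 1.44, 0.76 and 0.879 CPM untreated and 1.37, 0.55 and 0 CPM after IR. These transcripts were 1.51% or less of the H3-3B count in each library, and they were chosen after their values were seen.

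Changes in transcript usage were tested by edgeR's diffSpliceDGE with Simes p-values on 10661 genes, of which 2.68% were called. Of the 8 members with at least 2 tested transcripts, 0 were called, and 0 had an unadjusted p under 0.05. With only transcripts of at least 10 counts in every library of a group, H3-3B was called (adjusted p = 0.000912), where 5.12% of 10123 genes were. The spread between libraries was large for transcripts, with a biological coefficient of variation of 0.737 against 0.0931 for genes, and the H3-3B call depended on the filter. A transcript passes the stricter filter through either group. H3-3B-205, with 0 CPM in each untreated library, could pass only through the IR libraries. The call therefore does not count as separate support for a change in H3-3B.

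MACROH2A1 (chr5:135334381-135399914) and MACROH2A2 (chr10:70052544-70112282) encode the macroH2A proteins. MACROH2A1 had 183, 185 and 175 CPM in the untreated libraries and 168, 164 and 155 CPM in the IR libraries. Every IR library was below every untreated one, but the log2 fold change of -0.16 (SE 0.06, adjusted p = 0.088) did not pass the test, nor did that of -0.16 (SE 0.06, adjusted p = 0.0646) with the GC trend removed. At its GC content of 49.9% the fitted trend lay between -0.01 and 0.01 in each of the 6 libraries. With protein-coding transcripts only, the uncorrected log2 fold change of MACROH2A1 was -0.07 (adjusted p = 0.488 by edgeR). Those transcripts summed to 145, 140 and 139 CPM untreated and 141, 140 and 137 CPM after IR, with overlapping groups. The MACROH2A1 transcripts with no defined coding sequence summed to 27.1, 30.9 and 23.6 CPM untreated and 17, 14 and 15.8 CPM after IR, without overlap. MACROH2A2 had 34.8, 34.6 and 32.5 CPM in the untreated libraries and 34.1, 41.7 and 36.4 CPM in the IR libraries, with overlapping groups and a log2 fold change of 0.14 (SE 0.09, adjusted p = 0.247), or 0.04 (SE 0.08, adjusted p = 0.772) with the trend removed. MACROH2A2 shares 986 exonic bases with AIFM2 on the opposite strand.

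MACROH2A1 transcripts carry either of a pair of alternative exons, which give the proteins macroH2A1.2 (100-base exon) and macroH2A1.1 (91-base exon, the form whose macro domain binds ADP-ribose). They are shown because this choice of exon distinguishes the proteins (GRCh38, minus strand, from GENCODE release 44).
MACROH2A1-201, chr5:135352946-135353045, 100 bases: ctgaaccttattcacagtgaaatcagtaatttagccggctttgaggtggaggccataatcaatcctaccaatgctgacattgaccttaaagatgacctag
MACROH2A1-202, chr5:135350823-135350913, 91 bases: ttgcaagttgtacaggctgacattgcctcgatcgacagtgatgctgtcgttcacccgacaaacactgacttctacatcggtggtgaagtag

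Coding transcripts with the 100-base exon summed to 128, 128 and 123 CPM untreated and 120, 128 and 117 CPM after IR, and the transcript with the 91-base exon had 14.9, 9.07 and 8.49 CPM and 17.4, 10.7 and 16.7 CPM. The 91-base exon took 6.97% ± 1.95 (SD, n = 3) of the TPM of both forms in the untreated and 10.1% ± 2.69 in the IR libraries, with overlapping groups (p = 0.2, two-sided exact permutation test). The macroH2A1.2 form was thus the main one in each of the 6 libraries. MACROH2A1-218, a long transcript with no defined coding sequence that was picked after its values were seen, had 21.8, 25.7 and 19.7 CPM in the untreated libraries and 13.6, 11.5 and 9.29 CPM in the IR libraries, and the groups did not overlap.

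**Figure D2:**
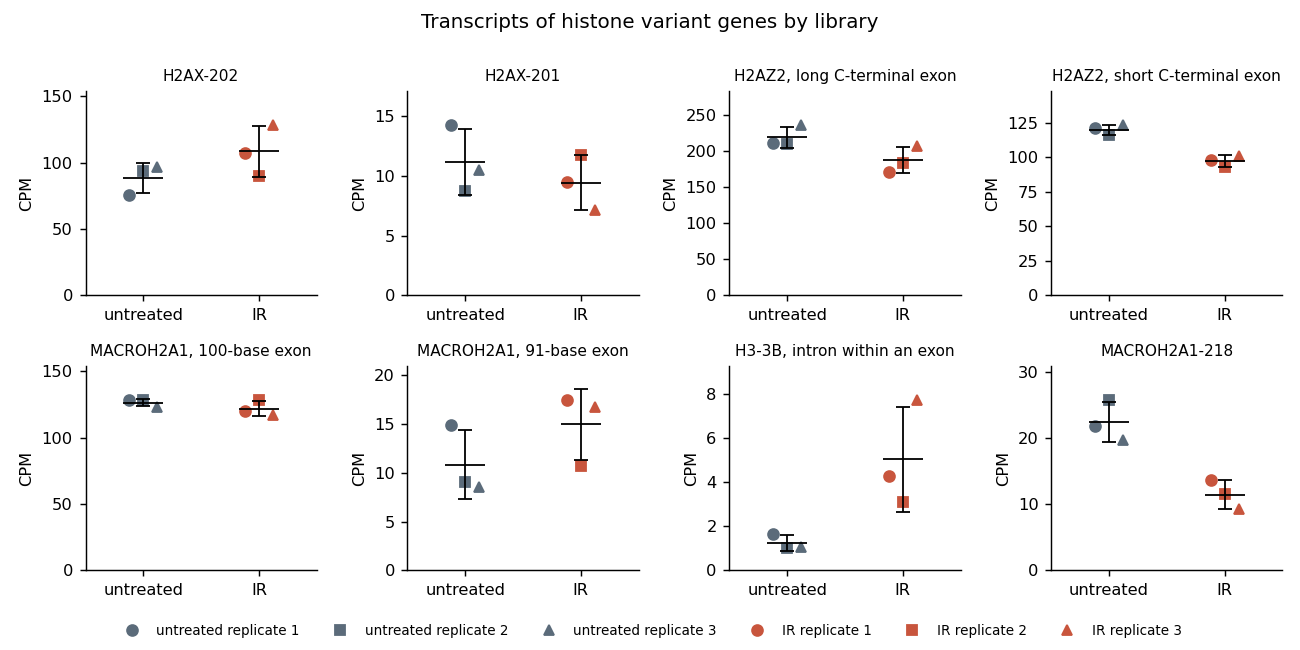
Transcript-level CPM (vertical axes, from 0) in the 3 untreated and 3 IR libraries, with the mean and SD as black lines, for the H2AX transcripts, the H2AZ2 forms with a long or short last coding exon, the MACROH2A1 forms with the 100-base or 91-base exon, the sum of the 4 H3-3B transcripts with an intron inside an exon, and MACROH2A1-218. Both H2AZ2 forms and MACROH2A1-218 were lower in every IR library, and the H3-3B sum was 1.25 ± 0.352 CPM untreated and 5.06 ± 2.39 CPM after IR.

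H1-10 (chr3:129314771-129316286), a linker histone gene of a single exon, had 68.8, 70.4 and 76.8 CPM in the untreated libraries and 64.6, 59 and 98 CPM in the IR libraries. IR replicate 3 was the highest library and the other 2 IR libraries were the lowest. The log2 fold change was 0.05 (SE 0.16, adjusted p = 0.849), and without IR replicate 3 it was -0.22 with an adjusted p of 0.0432. At 68.6%, H1-10 was the most GC-rich member, and its fitted trend ran from -0.31 to -0.21 in the untreated and from 0.08 to 0.50 in the IR libraries. With the trend removed it had 85.3, 81.3 and 90.6 CPM untreated and 56.6, 55.8 and 69.1 CPM after IR, without overlap, and the log2 fold change was -0.50 (SE 0.09, adjusted p = 0.00302), a fall by 29.1%. This was the only corrected call that held in all 6 fits that left out a library (log2 fold change -0.60 to -0.44, adjusted p 0.000287 to 0.0145). Among the 136 other genes within 2 percentage points of its GC content the median uncorrected log2 fold change was 0.52, and 91.2% had a larger value than H1-10.

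**Figure D3:**
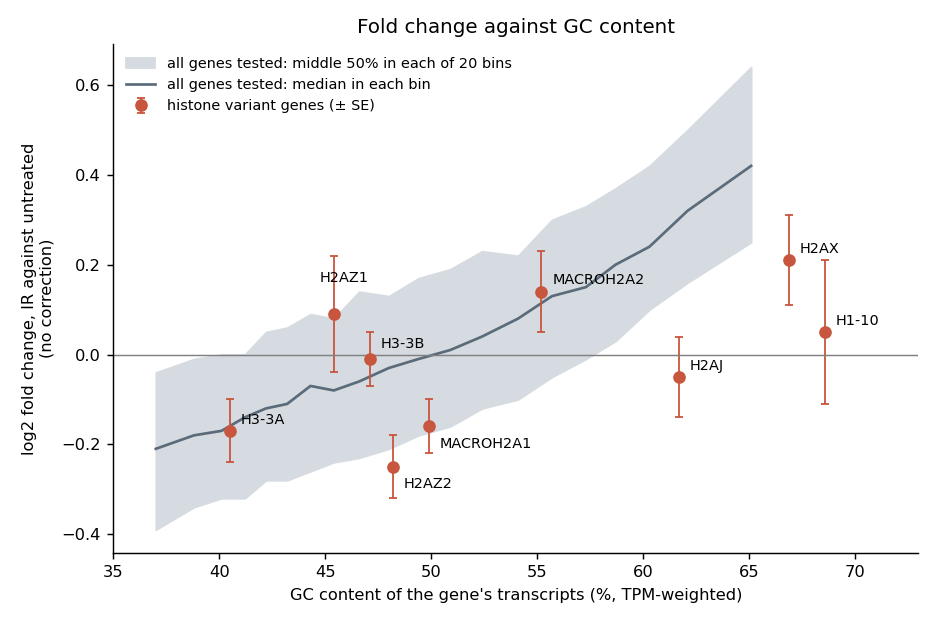
Uncorrected log2 fold change of IR against untreated (vertical axis) against the TPM-weighted GC content of each gene in percent (horizontal axis), for the 9 histone variant genes (red, ± SE) and for all 14322 genes tested as the median (line) and middle 50% (grey) of 20 bins of equal size. The medians rose from -0.21 in the bin at 37.0% GC to 0.42 in the bin at 65.1%, and H2AX, H2AJ and H1-10 lay below the line.

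Over the 9 members, edgeR called 0 higher and 1 lower (H2AZ2) without correction, beside 15.5% of all genes called higher and 14.5% called lower. At an unadjusted p under 0.05 there were 0 higher and 3 lower, where 3163 (22.1%) and 2858 of all 14322 genes were, and the DESeq2 Wald test called 0 higher and 2 lower, beside 14.8% and 14.5% of all genes. With the GC trend removed, edgeR called 0 higher and 4 lower (H2AX, H2AZ2, H2AJ and H1-10), where 11.7% of all genes were called higher and 12.6% lower. At an unadjusted p under 0.05 these were 0 and 5, beside 18.5% and 18.6% of all genes. The groups did not overlap for 3 members without correction, as for 47.1% of all genes, and for 5 with the trend removed, as for 42.2%. The median log2 fold change of the members was -0.01 without and -0.16 with the correction, beside 0.01 and 0.00 for all genes. Of the members called after correction, H2AX, H2AJ and H1-10 are also the 3 most GC-rich members, at whose GC content the fitted trend was 0.46, 0.29 and 0.51 higher on the log2 scale after IR, and H2AZ2 alone was called without its removal.

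**Figure D4:**
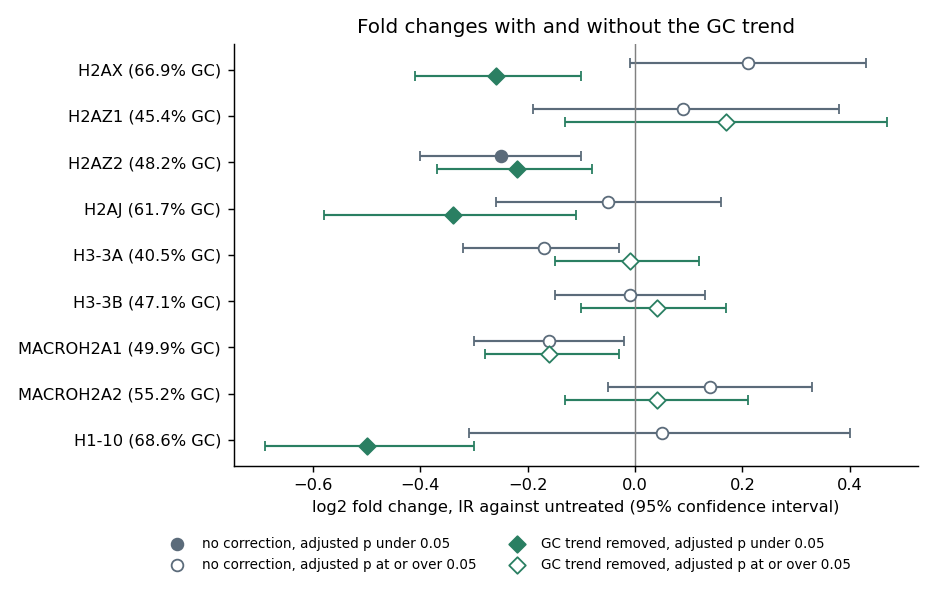
Log2 fold change of IR against untreated (horizontal axis) with its 95% confidence interval for each member, as measured (grey circles) and with the GC trend of each library removed (green diamonds), filled where the adjusted p was under 0.05. H2AZ2 is filled in both, H2AX, H2AJ and H1-10 only with the trend removed, and the H2AX estimate moves from 0.21 to -0.26.

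The balance within each pair of related genes was compared as the log2 ratio of their TPM, with the two-sided exact permutation test, whose smallest p is 0.1 for 3 libraries against 3. H2AZ1 was 2.68, 2.66 and 2.78 times H2AZ2 in the untreated and 2.85, 3.02 and 3.27 times in the IR libraries. The mean log2 ratio was 1.44 ± 0.04 untreated and 1.60 ± 0.10 after IR, without overlap (exact permutation p = 0.1, or 0.3 after Benjamini-Hochberg adjustment over the 3 ratios), and no ratio can pass the threshold in this design. H3-3A was 1.25, 1.28 and 1.54 times H3-3B untreated and 1.25, 1.31 and 0.889 times after IR (exact permutation p = 0.5, adjusted 0.5). MACROH2A1 was 2.40, 2.31 and 1.56 times MACROH2A2 untreated and 1.91, 1.27 and 2.24 times after IR (exact permutation p = 0.5, adjusted 0.5), and the difference of the log2 means, -0.23, was 0.01 without IR replicate 2. In CPM, which is not scaled to transcript length, all 3 ratios separated the groups, each at the smallest exact permutation p of 0.1. The CPM ratio of H3-3A to H3-3B was 0.749, 0.735 and 0.785 untreated and 0.696, 0.722 and 0.613 after IR, and that of MACROH2A1 to MACROH2A2 was 5.26, 5.34 and 5.39 untreated and 4.93, 3.95 and 4.25 after IR. Whether these 2 ratios separated the groups thus depended on the unit, while that of H2AZ1 to H2AZ2 was higher after IR in both units. No ratio was corrected for the GC trend, which differs between the genes of a pair. The fitted trend after IR minus untreated was -0.16 on the log2 scale for H3-3A and -0.04 for H3-3B, and 0.1 for MACROH2A2. Whether the CPM ratios separate the groups with the trend removed was not tested.

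Genes that place, move or modify these histones were listed by function, and the lists are described by counts only, with values as mean ± SD (n = 3) and numbers in brackets after them as log2 fold changes. Beside the counts of every list below, 15.5% of all genes were called higher and 14.5% lower without correction. With the GC trend removed these shares were 11.7% and 12.6%. Of 10 H3.3 chaperone and depositor genes, 4 fell without correction and 6 did not pass the test, with a median log2 fold change of -0.16. ATRX, the partner of DAXX in placing H3.3 at telomeres, went from 221 ± 2.96 to 167 ± 16.7 CPM (log2 fold change -0.41, adjusted p = 0.00433), which counts RNA and not the protein these cells are known to lack. The HIRA complex genes UBN1 (from 92.9 ± 3.05 to 78.9 ± 1.99 CPM, -0.24) and UBN2 (from 29.7 ± 1.88 to 20.7 ± 1.9 CPM, -0.53) fell, as did DEK (from 197 ± 8.35 to 151 ± 8.29 CPM, -0.39). HIRA itself had a log2 fold change of -0.05, DAXX of -0.01 and ASF1A of -0.14, and none of these passed. With the GC trend removed 6 of the 10 fell (median -0.23), the same 4 with CABIN1 and ASF1B.

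Of 32 genes of complexes that deposit or remove H2A.Z, 1 rose, 9 fell and 22 did not pass, with a median of -0.08. SRCAP, the ATPase that exchanges H2A for H2A.Z, went from 44.2 ± 9.82 to 23.9 ± 2.89 CPM (log2 fold change -0.88, adjusted p = 0.00242), and EP400, the ATPase of the other exchange complex, from 150 ± 10.7 to 123 ± 8.75 CPM (-0.29). ANP32E, a chaperone that removes H2A.Z, went from 274 ± 14.1 to 181 ± 11.7 CPM (-0.60) and INO80D, a subunit of the INO80 remodeller, from 55.8 ± 4.03 to 34.9 ± 4.34 CPM (-0.69). In CPM the groups did not overlap for these 4 genes, as for 47.1% of all genes, and INO80 itself had a log2 fold change of -0.02 that did not pass. EP400 had 15.8, 18.3 and 15.7 TPM untreated and 15, 13.6 and 17.9 TPM after IR, with overlapping groups. The TPM of SRCAP, ANP32E and INO80D did not overlap between the groups. ZNHIT1, a subunit of the SRCAP complex, rose (from 33.2 ± 1.28 to 39.7 ± 4.3 CPM, 0.26) but is 58.8% GC and was 0.06 with the trend removed (adjusted p = 0.505). With the trend removed 8 fell and 24 did not pass (median -0.13).

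Of 20 tested genes that phosphorylate H2AX, remove that phosphate or read it, 1 rose, 10 fell and 9 did not pass, with a median of -0.30. Of all genes, 15.5% were called higher and 14.5% lower. In CPM, the kinase genes PRKDC (from 709 ± 34.8 to 464 ± 54.4 CPM, -0.61) and ATM (from 124 ± 3.77 to 96.1 ± 6.73 CPM, -0.37) fell, as did MDC1, the reader of phosphorylated H2AX (from 150 ± 8.04 to 116 ± 14.4 CPM, -0.37). BAZ1B, which phosphorylates a tyrosine of H2AX, went from 315 ± 6.56 to 226 ± 21.1 CPM (-0.48) and EYA3, a phosphatase for that tyrosine, from 40.8 ± 2.19 to 29.5 ± 2.13 CPM (-0.47). PPM1D, a p53-induced phosphatase that acts on H2AX, rose from 120 ± 10.5 to 147 ± 16.3 CPM (0.29, adjusted p = 0.0408), with groups that overlapped. In TPM the means of PRKDC and ATM did not fall. PRKDC had 106 ± 7.38 TPM untreated and 109 ± 32.4 after IR, and ATM 50.3 ± 6.93 and 52.5 ± 6.02. The TPM means of MDC1, BAZ1B and EYA3 were lower after IR and that of PPM1D was higher, as in CPM. With the trend removed 1 rose, 6 fell and 13 did not pass, and the median was -0.13. Each gene named so far in this paragraph kept its call. The kinase gene ATR lost it (-0.33 without correction, -0.15 and adjusted p = 0.113 with it), as did NBN, MRE11 and PPP4R2.

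Among 9 chaperones and remodellers of macroH2A and H2AX, 4 fell and 5 did not pass (median -0.21). SSRP1 (from 494 ± 11.7 to 417 ± 13.8 CPM, -0.24) and SUPT16H (from 232 ± 19 to 188 ± 16.6 CPM, -0.31), the subunits of FACT, were lower in both fits, whereas HELLS (-0.38) and SMARCA5 (-0.27) were called only without correction. The corrected counts were 2 that rose, 2 that fell and 5 that did not pass, and the median was -0.02. The genes that rose only then were CHD1L (log2 fold change 0.18, adjusted p = 0.0372), a remodeller, and NAP1L1 (0.19, adjusted p = 0.0309), a histone chaperone. Of 11 replicative histone chaperone genes, 1 rose, 3 fell and 7 did not pass (median -0.19). CHAF1A, of the chromatin assembly factor that follows the replication fork, went from 95.8 ± 1.74 to 78.6 ± 0.655 CPM (-0.29), MMS22L from 48.6 ± 0.467 to 37.8 ± 1.64 CPM (-0.36) and HAT1 from 122 ± 4.8 to 103 ± 2.81 CPM (-0.25, and -0.04 with the trend removed). TONSL, the partner of MMS22L, at 65.2% GC, rose from 106 ± 7.46 to 143 ± 14.7 CPM (0.43) without and was 0.02 with the correction, when 4 genes of the list fell and 7 did not pass (median -0.13).

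CENPA, the centromeric H3 variant, had 59 ± 6.11 CPM untreated and 49.1 ± 3.84 CPM after IR without passing the test (-0.26, adjusted p = 0.052), and HJURP, its chaperone, fell from 80.7 ± 0.822 to 61.5 ± 4.95 CPM (-0.40, adjusted p = 0.00398).

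Of 15 genes that transcribe histone genes or process histone mRNA ends, 4 fell and 11 did not pass (median -0.12), or 2 and 13 with the trend removed (median -0.09). The shares of all genes called lower in these fits were 14.5% and 12.6%. CASP8AP2 (from 41.8 ± 2.16 to 26.6 ± 4.12 CPM, -0.66) and NPAT (from 36.7 ± 0.756 to 27.1 ± 2.46 CPM, -0.44), both of the histone locus body, fell in both fits, NCBP1 (-0.23) fell without correction only, and SLBP, which binds the stem-loop, had a log2 fold change of -0.22 (adjusted p = 0.0544). Of 69 clustered replication-dependent histone genes, 21 passed the filter. They summed to 142 to 177 CPM in a library, below H2AZ1 alone, beside the poly(A) selection that the labels name and the total RNA kit that the study's methods name. Of the 21, H2BC21 rose (from 10.5 ± 0.288 to 13.2 ± 1.23 CPM, 0.32), H2AC6 (from 29.9 ± 3.49 to 21 ± 1.04 CPM, -0.52), H2BC12 (from 37 ± 0.946 to 27.8 ± 3.25 CPM, -0.40) and H2BC18 (from 1.2 ± 0.354 to 0.316 ± 0.0624 CPM, -1.94) fell, and 17 did not pass, also with the GC trend removed.

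**Figure D5:**
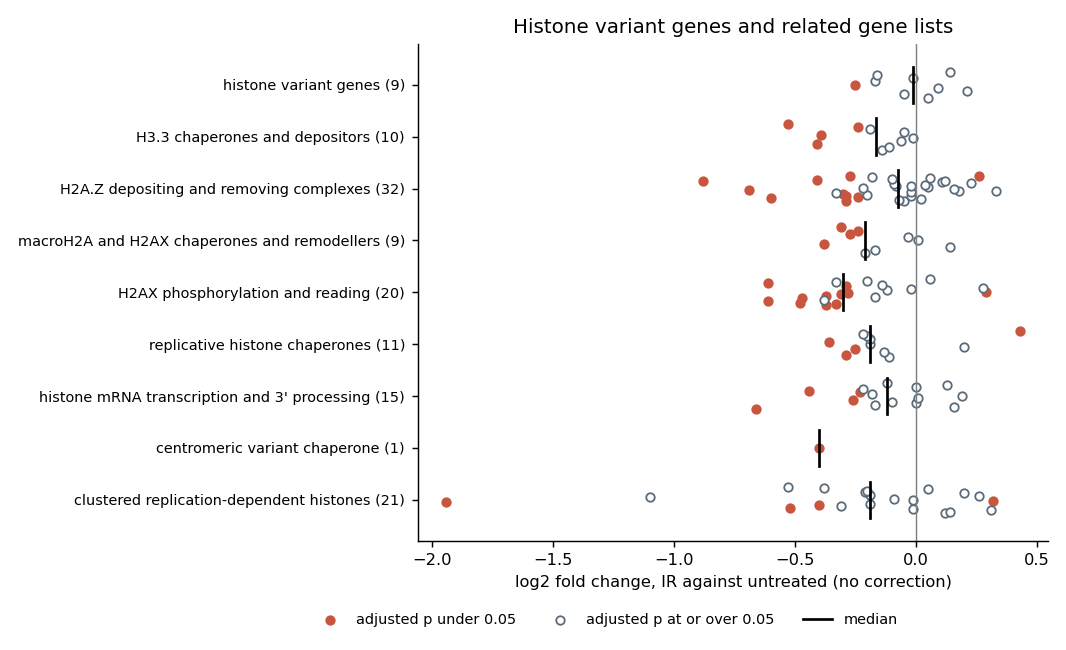
Uncorrected log2 fold change of IR against untreated (horizontal axis) for each tested gene of the histone variant genes and of the related lists, with the number of tested genes in brackets, the median as a black line and genes with an adjusted p under 0.05 filled. Uncorrected medians were -0.30 for the 20 genes of H2AX phosphorylation and reading, -0.16 for the 10 of H3.3 and -0.01 for the 9 histone variant genes, and their order changed with the GC trend removed, to -0.13, -0.23 and -0.16.

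The genes whose pattern over the 6 libraries was nearest to that of H2AX, by the root mean square difference of log2 CPM around each gene's mean among 10133 genes of at least 10 CPM, were TLNRD1 (0.025), ZNF747 (0.032) and CDT1 (0.033). For H2AZ1 they were TMEM203 (0.041), IBA57 (0.049) and SNX11 (0.050). With only 6 libraries that share depth and GC trends, this likeness is a description of these libraries.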

How the data were processed

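The 6 bulk RNA-seq libraries of U-2 OS cells, 3 untreated and 3 from 24 h after 4 Gy of IR, were grouped by the treatment given in the sample labels. The members and the gene lists were chosen with earlier results of these data known. Before deposit, the authors removed adaptors (fastp) and ran kallisto (version not given in the sources used here) on GENCODE release 37 of GRCh38. In the deposited files, an estimated count per transcript is given as kallisto writes it, without normalization. The TPM values, also from the authors, are scaled to effective length and to a fixed library total. The deposited length and effective length of each transcript were used for a length offset only. A poly(A) mRNA kit is named in the labels and a total RNA kit in the study's methods.

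Identifiers were looked up in GENCODE release 44 for symbols, coordinates and GC content, and 2580 of 161171 transcripts without a match (1.56% to 1.83% of counts) were dropped. Gene counts are sums of estimated counts, which were rounded, filtered by filterByExpr, scaled by TMM and tested with glmQLFit and glmQLFTest (edgeR 4.0.16, R 4.3.3), with Benjamini-Hochberg adjustment over all 14322 genes and a threshold of 0.05. The SE was computed as the size of the log2 fold change divided by the root of F. CPM values are TMM-scaled. For the GC correction, a lowess curve (span 30%) of each gene's deviation from its mean log2 CPM on its TPM-weighted GC content was fitted per library and used as an offset. Transcript usage was tested by diffSpliceDGE and ratios by exact permutation tests. The scripts were tested on simulated counts. Replicates of a group differed by more than sampling noise (chi-square per gene 3.44 to 32.2), and each library was counted once. The counting is not stated to use strand.

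Alternatives were DESeq2 1.42.0 (size factors and the Wald test), edgeR's likelihood ratio test, other filters on low counts, an offset for effective length, protein-coding transcripts only, a replicate block and leaving out each library. Named genes are the members, CDKN1A, up to 3 called genes of lowest p per list and direction with a fixed set of chaperones, kinases and variants, and the 3 genes nearest in pattern to H2AX and H2AZ1. CABIN1, CHD1L, NAP1L1, ATR, NBN, MRE11 and PPP4R2 are named beyond that rule, after their values were seen. A gene that this rule selects, and the list that holds it, are not reported here.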

Additional observations from a re-analysis of the deposited data

How the results depend on the processing

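The count of members called lower, 1 without correction, was 4 with the GC trend removed, 4 with the trend removed and a replicate block, 2 by the DESeq2 Wald test (H3-3A added) and 0 with an offset for effective length, and 0 to 2 when a library was left out. With the trend removed, the count of 4 became 1 to 3 when a library was left out. The count of members called higher was 0 in each of these fits. Of all genes, 2226 were called higher and 2080 lower. An offset for effective length gave 836 and 875, protein-coding transcripts only 1274 higher, the trend removed with a replicate block 1473 higher, and leaving out a library 1312 to 2255 higher and 1257 to 2188 lower, or 914 to 1504 and 990 to 1644 with the trend removed. The cause of these shifts was not tested, but fits without a library have fewer samples.

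The log2 fold change changed sign with the trend removed for H2AX (-0.26), H1-10 (-0.50) and H3-3B (0.04), and likewise with the replicate block added (-0.26, -0.51 and 0.04). It changed sign for H2AJ with an offset for effective length (0.19) and with protein-coding transcripts only (0.11), and for H3-3B with the latter (0.08). Leaving out a library turned the sign of H2AZ1 (-0.10 to 0.19, or -0.05 to 0.28 with the trend removed), H3-3B (-0.05 to 0.03, or -0.02 to 0.09), H1-10 (-0.22 to 0.17), and, with the trend removed, H3-3A (-0.06 to 0.03) and MACROH2A2 (-0.04 to 0.08). Transcript usage called 1 member (H3-3B) with the stricter filter, which a transcript can pass through only the group where it is high. The log2 ratio of MACROH2A1 to MACROH2A2 differed by -0.42 to 0.01 when a library was left out.

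The replicate numbers are shared by the groups, but same-numbered samples did not deviate together (correlations of -0.017, 0.007 and -0.052), so the numbers are not treated as pairs. The replicate block alone gave 1 member called lower, 1725 genes higher and 1624 lower. Depth was lowest for H2AJ, at 13.8 to 15.8 CPM.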
